A study of Mus musculus with 12 samples.

Results

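The genes of cholesterol synthesis that the transcription factor SREBP2 drives were followed in whole mouse kidney after a single dose of SK-124, a selective inhibitor of the salt-inducible kinases SIK2 and SIK3. The 8 members, taken by gene symbol from the 55401 gene identifiers of the deposited tables, were *Hmgcs1*, *Idi1*, *Fdft1*, *Sqle*, *Lss* and *Cyp51*, which encode enzymes of the pathway, and *Insig1* and *Srebf2*, which encode parts of its control. Whole kidneys came from male C57BL6 mice aged 8 weeks, of which 6 had received vehicle and 6 had received SK-124 at 40 mg/kg, both as 1 intraperitoneal injection, and each mouse gave 1 RNA-Seq library. The vehicle was 15% 2-hydroxypropyl-beta-cyclodextrin, a ring-shaped sugar that can bind cholesterol, and the study's methods for another experiment dissolve SK-124 in the same vehicle. The time from injection to RNA-Seq is not given in the sources used here. RNA was extracted from the whole organ, so fewer cells of a type and less RNA per cell cannot be told apart.

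Cholesterol is built from acetyl-CoA through mevalonate, isoprenoid units, squalene and lanosterol, and nearly every enzyme on that route is under the control of SREBP2. When sterols in the endoplasmic reticulum are plentiful, INSIG proteins hold SREBP2 and its escort SCAP there. When sterols fall, the pair moves to the Golgi, proteases release the active factor and it switches on the enzymes, *Insig1* and its own gene. SIKs are inhibited by PTH through cAMP and PKA, which lets CRTC coactivators and class IIa histone deacetylases enter the nucleus. The paper also names lipid metabolism among the processes in which SIKs take part.

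Of the 8 members, 7 rose with SK-124 and 0 fell (edgeR's quasi-likelihood test, Benjamini-Hochberg FDR under 0.05 over 14159 genes tested), where 10.8% of all genes tested were called higher and 13.5% lower. The eighth, *Srebf2*, had an FDR of 0.0704 in the same test. All 8 members passed edgeR's filter on low counts. The members were chosen with earlier results of these data known, so the shares over all genes describe the list and do not test it. The median log2 fold change of the members was 0.36, against -0.01 over all genes tested. In CPM (counts scaled by edgeR's TMM method), every SK-124-treated mouse lay above every vehicle-treated mouse in 4 members (*Sqle*, *Fdft1*, *Cyp51* and *Insig1*). This held for 6.32% of all genes tested. In TPM, the authors' length-corrected scale, the groups overlapped in *Sqle* (vehicle up to 13.93, SK-124 from 12.33) and *Cyp51* (up to 41.6, from 37.57). They did not overlap in TPM in *Fdft1* and *Insig1*. The members' changes were moderate, from 1.23-fold in *Hmgcs1* to 1.78-fold in *Insig1* among those called. Of the 1536 genes called higher, 329 had a larger log2 fold change than *Insig1*, 358 a larger one than *Fdft1* and 1029 a larger one than *Hmgcs1*.

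Expected counts summed to between 19244227 and 19771802 per mouse. The 10 most abundant genes took 39.9% to 43.2% of the counts in vehicle-treated mice, 44.4% to 46.8% in SK-124-treated mice 1 to 3 and 38.6% to 40.2% in mice 4 to 6, so members were also tested with mice 1 to 3 or mice 4 to 6 alone. Markers fitted whole kidney: transcripts of 5 proximal tubule genes summed to 2190 to 2636 TPM (transcript abundance corrected for length and scaled to a common total) in vehicle-treated and 1804 to 2251 TPM in SK-124-treated mice, and none of the 5 was called in the edgeR test. Other nephron markers summed to 944 to 1526 and 1098 to 1480 TPM, with 1 of 6 called higher (*Aqp2*) and 1 lower (*Atp6v1b1*), and blood markers to 1287 to 3211 and 1214 to 2097 TPM. Immune markers were lower, at 1.79 to 3.26 and 0.97 to 1.5 TPM, with 1 of 3 tested called lower (*Cd79a*), and their part in the members' values was not tested. Adrenal cortex, a steroid-producing neighbour of the kidney, was near 0: its 7 markers summed to at most 0.62 TPM in any mouse, and *Cyp11b2* and *Cyp21a1* had 0 counts throughout. Fat markers varied between mice, from 0.08 to 21.1 TPM in vehicle-treated and 0.14 to 9.98 TPM in SK-124-treated mice. Their highest counts in any mouse were 230 for *Cfd*, 60 for *Cidec*, 46 for *Plin1*, 39 for *Adipoq* and 3 for *Lep*. The part of fat in the members' values was not tested.

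Promoter windows from 250 bases before to 50 bases after the annotated start (RefSeq, GRCm38.p6) were found for 6 members, and those of *Sqle* and *Fdft1* were not in the table. They were searched on both strands for the letters of motifs named in SREBP2 and CRTC biology, because most members were called higher with SK-124. The sterol regulatory element TCACNCCAC was present in 1 of the 6 windows (*Hmgcs1*, 137 bases before the start) and in 1.24% of all 32851 mouse windows. The CCAAT box, where SREBP's partner NF-Y binds, was spelled out in 6 of 6 members and 37.4% of all windows, and the GC box GGGCGG, bound by the partner Sp1, in 6 of 6 and 35.7%. The cAMP response element TGACGTCA was in 0 of 6 members and 1.79% of windows, its shorter form TGACG, which the full element contains, was in 4 of 6 and 20.8%, and the E-box CACGTG was in 1 of 6 (*Insig1*) and 7.15%. A match is a run of letters and not a bound site, and a missing match says only that these letters were not in the window. The 4 stretches below show the *Hmgcs1* promoter with its sterol element and, for comparison, 3 members in which only the CCAAT box was spelled out of these 2 motifs. They run 5′ to 3′ along the gene and end before the earliest annotated start in RefSeq or GENCODE. Cut the same way, the *Idi1* and *Cyp51* stretches held 0 sterol elements and 0 CCAAT boxes and are not shown. The CCAAT boxes counted in the windows of *Idi1* and *Cyp51* lay after that earliest start. Capitals mark the sterol element and the CCAAT box, which reads ATTGG on the opposite strand.
Hmgcs1 (chr13:119690101-119690350, plus strand): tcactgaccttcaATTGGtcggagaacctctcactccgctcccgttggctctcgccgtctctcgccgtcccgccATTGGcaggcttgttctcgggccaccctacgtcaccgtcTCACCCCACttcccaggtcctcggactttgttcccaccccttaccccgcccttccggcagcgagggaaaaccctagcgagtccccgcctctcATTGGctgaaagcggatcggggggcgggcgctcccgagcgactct
Lss (chr10:76531355-76531564, plus strand): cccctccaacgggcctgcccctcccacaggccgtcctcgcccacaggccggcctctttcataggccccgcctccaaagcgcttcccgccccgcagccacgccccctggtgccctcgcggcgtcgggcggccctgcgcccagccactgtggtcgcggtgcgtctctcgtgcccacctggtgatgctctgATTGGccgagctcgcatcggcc
Insig1 (chr5:28071162-28071362, plus strand): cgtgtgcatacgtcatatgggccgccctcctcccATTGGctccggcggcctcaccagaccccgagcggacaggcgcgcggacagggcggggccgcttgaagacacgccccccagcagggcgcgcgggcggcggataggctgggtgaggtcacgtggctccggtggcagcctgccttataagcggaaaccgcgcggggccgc
Srebf2 (chr15:82147019-82147180, plus strand): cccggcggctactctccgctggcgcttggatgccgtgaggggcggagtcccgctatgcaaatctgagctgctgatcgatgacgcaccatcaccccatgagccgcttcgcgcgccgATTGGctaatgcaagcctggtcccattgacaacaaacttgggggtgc
The *Hmgcs1* stretch holds 1 sterol element and 3 CCAAT boxes, whereas the stretches of *Lss*, *Insig1* and *Srebf2* hold 1 CCAAT box each. Whether these letters go with the size of a member's change was not tested. Only 1 window held the sterol element, and *Sqle* and *Fdft1* had no window.

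**Figure D1:**
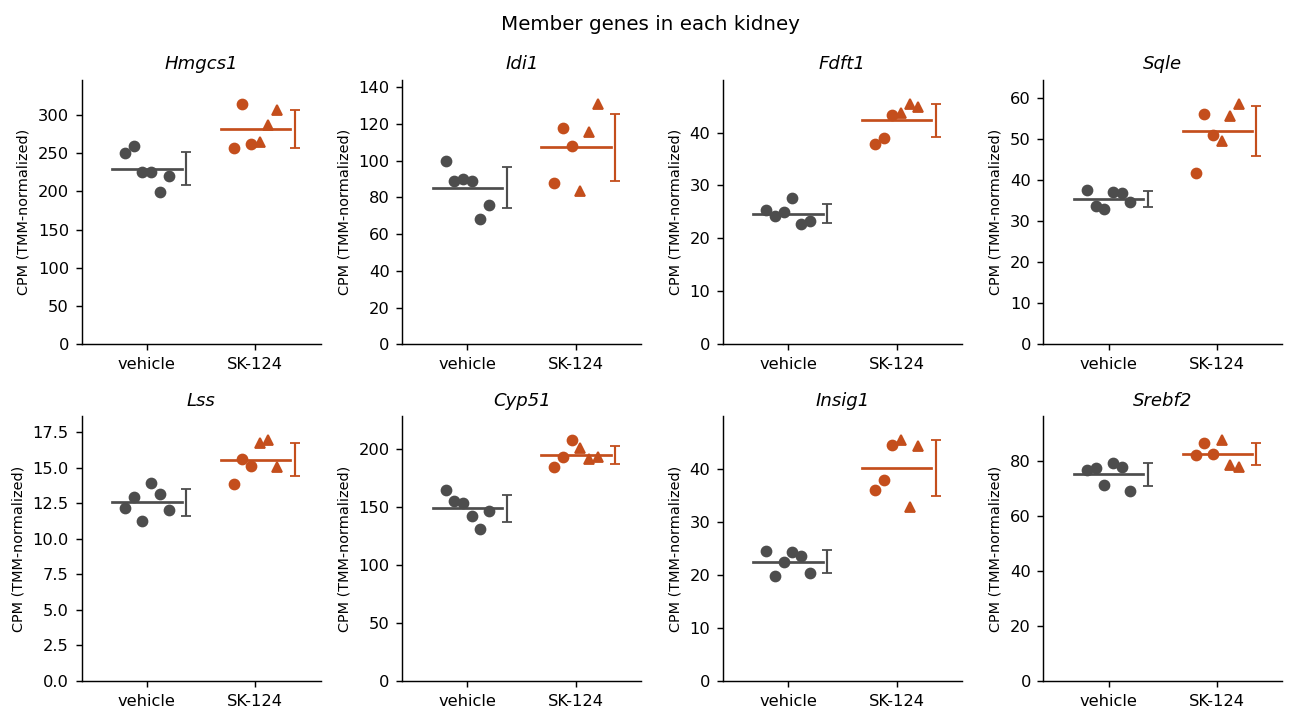
Each panel plots 1 member, with CPM (a gene's expected count per fixed number of counts, with library sizes adjusted by edgeR's TMM method) on the y axis from 0 and 1 point per mouse. Vehicle is grey, SK-124 is orange with mice 1 to 3 as circles and mice 4 to 6 as triangles, the horizontal lines are means and the bars 1 SD (n = 6). The groups are apart in *Fdft1*, *Sqle*, *Cyp51* and *Insig1* and overlap in the other 4 genes.

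The enzymes of the first stage, from acetyl-CoA to farnesyl diphosphate, are represented by *Hmgcs1* and *Idi1*. *Hmgcs1* encodes the cytosolic HMG-CoA synthase, which joins acetyl units into HMG-CoA on the way to mevalonate, and lies on the plus strand of chromosome 13 from 119690379 to 119708260 (GENCODE M21, GRCm38). Its CPM was lowest 199, median 225 and highest 259 in vehicle-treated mice, and lowest 257, median 276 and highest 315 in SK-124-treated mice. In 5 of 6 SK-124-treated mice *Hmgcs1* exceeded every vehicle value, and mouse 1 lay just within the vehicle range. The log2 fold change was 0.29 (SE 0.07, 95% interval 0.15 to 0.44, FDR = 0.00521, edgeR), and an exact permutation test (two-sided, log2(CPM + 0.5)) gave p = 0.00433, where 0.00216 is the smallest p that 6 against 6 allow. The *Hmgcs1* call was lost with SK-124-treated mice 1 to 3 alone (FDR = 0.0532), with library totals in place of TMM (log2 fold change 0.18, FDR = 0.103) and with limma on log2(TPM + 1) and log2(TPM + 0.1) (0.13 on both, FDR = 0.409 and 0.407).

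*Idi1* encodes isopentenyl diphosphate isomerase, which balances the isoprenoid building blocks, and also lies on chromosome 13 from 8885501 to 8892451 on the plus strand. Its CPM was lowest 68.3, median 89.0 and highest 99.7 with vehicle, and lowest 83.6, median 112 and highest 131 with SK-124. *Idi1* had the largest SD relative to its mean in both groups: SK-124-treated mice 1 and 4 fell inside the vehicle range and the other 4 lay above it. Its log2 fold change was 0.33 (SE 0.11, 95% interval 0.10 to 0.56, FDR = 0.0322, edgeR), with an exact permutation p of 0.0390. The call for *Idi1* was lost when any of 6 mice was left out (vehicle mice 5 and 6, SK-124-treated mice 2, 3, 5 and 6), with an FDR of at most 0.0864, and with only mice 1 to 3 or only mice 4 to 6 of the SK-124 group (FDR = 0.0984 and 0.0674). It was also lost with library totals (log2 fold change 0.22, FDR = 0.143) and with limma on both TPM scales (0.20 and 0.20, FDR = 0.296 and 0.294), and *Idi1* was called in 12 of 24 settings in all.

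In the squalene stage the groups did not overlap in CPM in *Fdft1* and *Sqle* and overlapped in *Lss*. *Fdft1* encodes squalene synthase, the first enzyme committed to sterols, and lies on chromosome 14 from 63145150 to 63181687 (RefSeq, GRCm38.p6). *Fdft1* CPM was lowest 22.7, median 24.6 and highest 27.6 with vehicle, and lowest 37.9, median 43.5 and highest 45.4 with SK-124. No SK-124-treated mouse came near the vehicle range. SK-124 raised *Fdft1* by a log2 fold change of 0.78 (SE 0.06, 95% interval 0.65 to 0.91, FDR = 9.38e-08, edgeR; exact permutation p = 0.00216). *Fdft1* had the smallest FDR of the members, and it was called in all 24 alternative settings, with log2 fold changes from 0.59 to 0.86.

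*Sqle* encodes squalene epoxidase, which adds the oxygen needed to close the sterol rings, and lies on chromosome 15 from 59315077 to 59331192 on the plus strand. Its CPM was lowest 32.9, median 35.7 and highest 37.6 with vehicle, and lowest 41.7, median 53.2 and highest 58.5 with SK-124. The vehicle values of *Sqle* were tight and every SK-124-treated mouse was above them, mouse 1 by the smallest margin. *Sqle* rose by 0.55 on the log2 scale (SE 0.07, 95% interval 0.40 to 0.71, FDR = 2.61e-05, edgeR; exact permutation p = 0.00216), and it was called in all 24 settings.

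*Lss* encodes lanosterol synthase, which folds squalene epoxide into the first sterol, and lies on chromosome 10 from 76531588 to 76557138 on the plus strand. It was the least abundant member, with CPM lowest 11.3, median 12.6 and highest 14.0 in vehicle-treated mice and lowest 13.9, median 15.4 and highest 16.9 in SK-124-treated mice. Only SK-124-treated mouse 1 overlapped the vehicle range in *Lss*. For *Lss* the log2 fold change was 0.31 (SE 0.07, 95% interval 0.16 to 0.45, FDR = 0.00280, edgeR), with an exact permutation p of 0.00433. The *Lss* call was lost with SK-124-treated mice 1 to 3 alone (FDR = 0.0653), with library totals (log2 fold change 0.20, FDR = 0.124) and with limma on both TPM scales (0.30 and 0.38, FDR = 0.225 and 0.218).

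After lanosterol, *Cyp51* encodes the lanosterol demethylase and lies on chromosome 5 from 4081145 to 4104746 on the minus strand. Its CPM was lowest 131, median 150 and highest 164 with vehicle, and lowest 185, median 194 and highest 208 with SK-124. The SK-124 values of *Cyp51* were close together and all above the vehicle range. *Cyp51* rose by 0.39 on the log2 scale (SE 0.06, 95% interval 0.27 to 0.51, FDR = 5.58e-05, edgeR; exact permutation p = 0.00216), and it was called in 22 of 24 settings, the exceptions being limma on both TPM scales (0.23 and 0.24, FDR = 0.0780 and 0.0791). The gene *Akap9* overlaps *Cyp51* on the opposite strand and, without a stated use of strand, their reads may not be told apart. *Akap9* itself had 753 to 1096 counts per mouse and a log2 fold change of -0.00 (FDR = 0.999, edgeR). The genes that overlap other members on GENCODE M21 had at most 8 counts in any mouse.

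Among the control genes, *Insig1* had the largest change of the members. It encodes an endoplasmic reticulum protein that retains SCAP and SREBP, and it lies on chromosome 5 from 28071363 to 28078662 on the plus strand. *Insig1* CPM was lowest 19.7, median 23.0 and highest 24.5 with vehicle, and lowest 32.8, median 41.1 and highest 45.3 with SK-124. All SK-124-treated mice were above all vehicle-treated mice, although mouse 5, the highest of its group for *Fdft1* and *Lss*, was the lowest for *Insig1*. *Insig1* rose by 0.84 on the log2 scale (SE 0.09, 95% interval 0.65 to 1.02, FDR = 1.68e-06, edgeR; exact permutation p = 0.00216), and the call held in all 24 settings.

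*Srebf2*, which encodes SREBP2 itself, lies on chromosome 15 from 82147181 to 82205379 on the plus strand and differed least. Its CPM was lowest 69.0, median 77.1 and highest 79.4 with vehicle, and lowest 77.9, median 82.4 and highest 87.5 with SK-124. In 4 of 6 SK-124-treated mice *Srebf2* exceeded every vehicle value, and mice 5 and 6 were within the vehicle range. Its log2 fold change was 0.13 (SE 0.05, 95% interval 0.02 to 0.24, FDR = 0.0704, edgeR), with an exact permutation p of 0.0108. It did not pass the test in edgeR, whereas DESeq2 called it higher (adjusted p = 0.0325). On the TPM scale the *Srebf2* groups overlapped almost fully, at 24.0 to 33.8 TPM with vehicle and 24.0 to 35.6 TPM with SK-124.

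Levels between members were compared in TPM, which corrects for transcript length. In vehicle-treated mice the order of median levels was *Hmgcs1* at 69.3 TPM, *Cyp51* at 36.4, *Srebf2* at 29.7, *Idi1* at 27.8, *Sqle* at 12.98, *Insig1* at 8.57, *Fdft1* at 8.14 and *Lss* at 3.08 TPM. Ranges of neighbours in this order did not overlap, except between *Srebf2* and *Idi1* and between *Insig1* and *Fdft1*. In SK-124-treated mice the order was the same apart from *Idi1*, at 31.8 TPM, and *Srebf2*, at 28.9 TPM, which exchanged places while their ranges overlapped. Ranges there also overlapped between *Cyp51* and *Idi1*, between *Sqle* and *Insig1*, and between *Insig1* and *Fdft1*. The *Lss* level was the least certain, because the mean transcript length that RSEM assigned to it ranged from 2407 to 5700 bases across mice. The *Insig1* transcript length was 2527 to 2628 bases with vehicle and 2462 to 2537 bases with SK-124, which overlap slightly. The counts behind these levels ran from 221 for *Lss* in 1 vehicle-treated mouse to 6038 for *Hmgcs1* in 1 SK-124-treated mouse.

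The scale mattered for the smaller changes. Over all genes tested the median log2 fold change was -0.12 with library totals in place of TMM, and it was -0.11 on log2(TPM + 1) and -0.14 on log2(TPM + 0.1) with limma, so that 20.3%, 19.01% and 19.04% of all calls were in the higher direction against 44.5% with TMM. In the same 3 settings 4, 3 and 3 members were called higher, with *Sqle*, *Fdft1* and *Insig1* called in each and *Cyp51* with library totals. Calls of genes named further on that were lost on both TPM scales were those of *Fdps*, *Hsd17b7*, *Insig2*, *Mylip*, *Soat1*, *Elovl6*, *Gpam*, *Scd2*, *Cyp7b1* and *Cyp39a1*, with FDRs from 0.0546 (*Elovl6*) to 0.833 (*Insig2*). Relative to the median of all genes, the members' median was 0.37 with TMM, 0.37 with library totals, 0.37 on log2(TPM + 1) and 0.45 on log2(TPM + 0.1). In every setting run each member's log2 fold change was above 0, although for *Srebf2* it came down to 0.01.

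**Figure D2:**
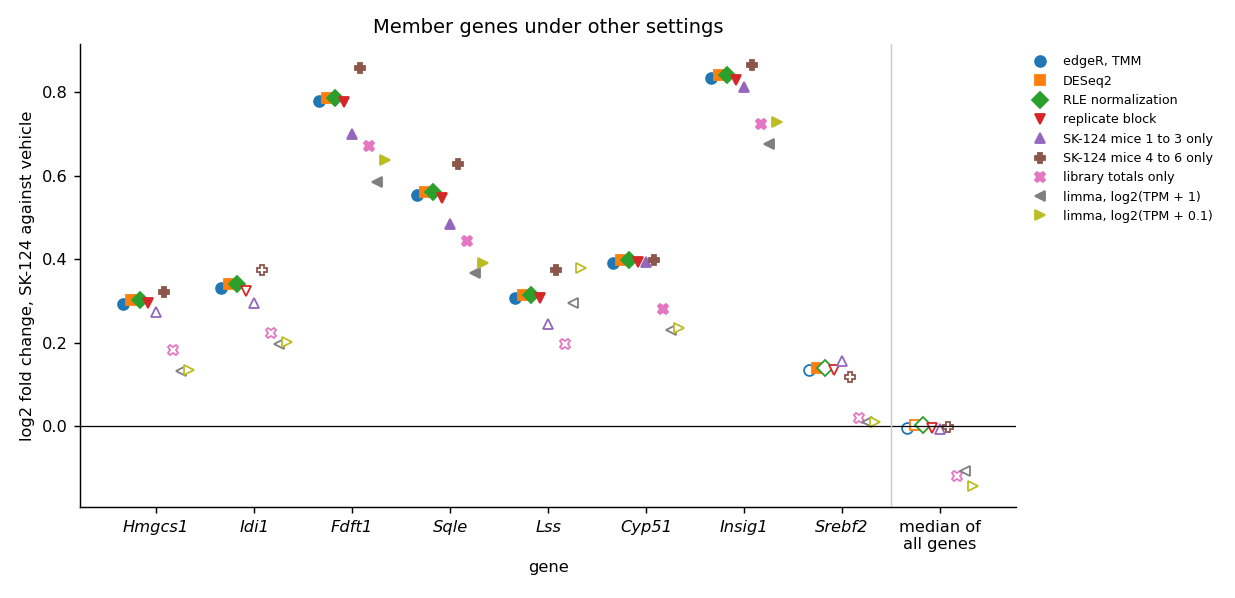
The y axis gives the log2 fold change of each member, and on the right the median of all genes tested, under 9 settings marked by symbol and colour. A filled symbol marks an adjusted p under 0.05, and the median of all genes is always open because it has no test. All members lie above 0 in each setting shown, and the 3 settings whose median of all genes lies between -0.14 and -0.11 give lower values for every member, except *Lss* on log2(TPM + 0.1).

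Whether members varied together between mice of the same treatment was examined in pairs. Over the 28 pairs of members, the median Pearson r of log2(CPM + 0.5) was 0.28 in vehicle-treated mice, with 19 pairs above 0, and 0.25 in SK-124-treated mice, with 20 above 0, whereas over all pairs of tested genes the median was near 0. In SK-124-treated mice the members' median was 0.67 with library totals and 0.67 on log2(TPM + 0.5), where the median over all gene pairs was not obtained. In vehicle-treated mice the members' median ran from 0.10 without mouse 4 to 0.52 without mouse 5. The highest was *Hmgcs1* with *Cyp51* in vehicle-treated mice, at r = 0.87 (exact permutation p = 0.0333, adjusted 0.441 over 56 relations, n = 6), with Spearman's rho 0.77 (exact permutation p = 0.103) and r = 0.86 without the 2 mice farthest from the *Hmgcs1* median. In SK-124-treated mice the highest was *Sqle* with *Idi1*, at r = 0.84 (exact permutation p = 0.0264, adjusted 0.441, n = 6), with rho 0.94 (exact permutation p = 0.0167) and r = 0.86 without the 2 mice farthest from the *Sqle* median. No relation passed adjustment, and 4 in vehicle-treated and 2 in SK-124-treated mice had an unadjusted exact permutation p under 0.05. SK-124-treated mouse 1 had the lowest value of its group in 5 of 8 members, and without it the median r in that group was -0.26.

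The gene whose variation within groups was most like the mean profile of the 6 enzymes, over 12 mice and 13000 genes compared, was *Cep44* (r = 0.96 after each group's mean was subtracted). *Odc1*, the first enzyme of polyamine synthesis, followed at 0.91, then *Slc52a3*, a riboflavin transporter, at 0.90, *Cyp7b1*, an oxysterol hydroxylase, at 0.90 and *Gm31774* at 0.90. These r values are the highest of 13000 and describe these 12 libraries. Of the 5, *Cep44* (log2 fold change 0.48, FDR = 0.00343) and *Cyp7b1* (0.43, FDR = 0.000660) rose with SK-124 and *Slc52a3* fell (-0.22, FDR = 0.0360, edgeR).

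Across the 19 enzymes of the route to cholesterol that are reported here, 10 rose and 1 fell in the edgeR test, with a median log2 fold change of 0.29. The 13 enzymes that are not members had a median of 0.10. Of them 4 rose and 1 fell, beside 10.8% of all genes tested called higher and 13.5% lower. Split by stage after these values were seen, 4 of 7 enzymes up to farnesyl diphosphate rose and 0 fell, 3 of 3 rose from squalene synthesis to lanosterol, and 3 of 9 rose and 1 fell after lanosterol.

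Of the enzymes that are not members, *Pmvk*, the phosphomevalonate kinase, rose by 0.80 (SE 0.11, FDR = 5.15e-05), *Msmo1*, a sterol methyl oxidase, by 0.73 (SE 0.09, FDR = 6.64e-06), and *Hsd17b7*, a ketosteroid reductase of the same demethylation steps, by 0.63 (SE 0.09, FDR = 4.42e-05). *Fdps*, which makes farnesyl diphosphate, rose by 0.49 (FDR = 0.000392, edgeR) and was named after its value was seen.

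The neighbours of these enzymes did not all rise. *Lbr*, a lamin-binding protein that also reduces a sterol double bond, fell by 0.50 on the log2 scale (SE 0.09, FDR = 0.000633, edgeR), from a vehicle median of 12.5 CPM to 9.04 CPM with no overlap. Beside members that rose, *Mvk* (log2 fold change 0.03, FDR = 0.901), *Mvd* (-0.18, FDR = 0.0884) and *Nsdhl* (0.06, FDR = 0.490), all 3 named after their values were seen, did not pass the test, although *Mvd* was called lower without SK-124-treated mouse 5 (FDR = 0.0154), with SK-124-treated mice 1 to 3 alone (FDR = 0.0391) and with library totals (FDR = 0.0288).

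**Figure D3:**
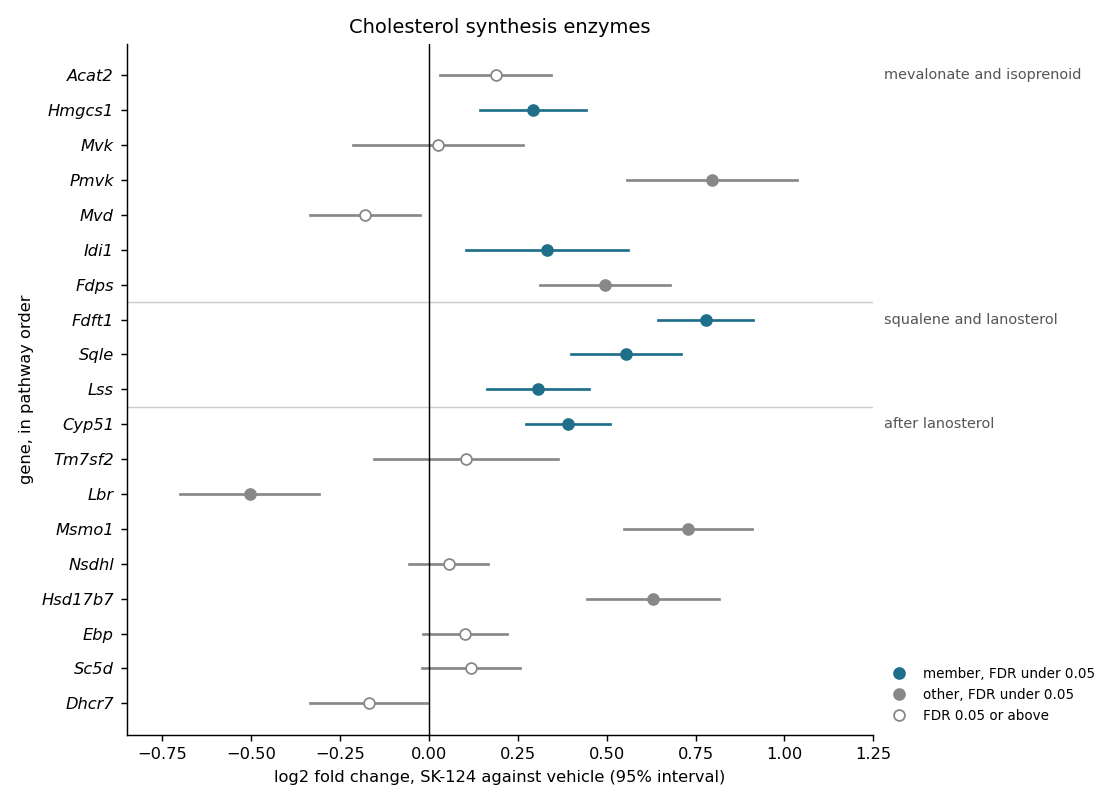
The x axis gives the log2 fold change of SK-124 against vehicle with its 95% interval for 19 enzymes, listed in pathway order on the y axis and divided into 3 stages. Members are blue and the others grey, and filled points have an FDR under 0.05. The 6 member enzymes lie between 0.29 and 0.78, while the enzymes after lanosterol run from -0.50 (*Lbr*) to 0.73 (*Msmo1*).

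Among 10 genes reported here that control SREBPs, 2 rose and 1 fell, *Insig1* among those that rose. For this list and those that follow, the shares over all genes tested were 10.8% called higher and 13.5% lower. No set test was run on any list. *Insig2*, the related retention protein, rose by 0.15 (FDR = 0.0392), a call lost when any mouse but vehicle mouse 3 or 6 was left out, with an FDR up to 0.0925, and with library totals (FDR = 0.762). *Srebf1*, which encodes the SREBP that chiefly drives fatty acid synthesis, fell by 0.70 on the log2 scale (SE 0.08, FDR = 8.61e-06), from a median of 26.7 CPM to 16.7 CPM with no overlap. The escort *Scap* had a log2 fold change of -0.03 (FDR = 0.762, edgeR).

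Of 8 genes of cholesterol uptake and trafficking reported here, 1 fell and the other 7 did not pass the edgeR test. The lysosomal lipase *Lipa*, which frees cholesterol from its esters, fell by 0.51 (SE 0.07, FDR = 7.37e-05), from a vehicle median of 149 CPM to 107 CPM with no overlap between the groups.

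The list of liver X receptors, their targets and sterol storage had 8 of 10 genes tested, of which 2 rose and 2 fell. The sterol exporters *Abca1* (log2 fold change -0.42, FDR = 0.0139) and *Abcg1* (-0.91, FDR = 0.000886, edgeR) both fell, the latter with no overlap. *Mylip*, a ubiquitin ligase induced by liver X receptors, rose by 0.47 (FDR = 0.00828), and *Soat1*, which esterifies cholesterol for storage, by 0.25 (FDR = 0.0144). The *Abca1* call was lost with SK-124-treated mice 1 to 3 alone (FDR = 0.112), and the *Soat1* call with only mice 1 to 3 or only mice 4 to 6 of that group (FDR = 0.0538 and 0.0612) and with library totals (FDR = 0.230).

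Fatty acid synthesis was represented by 12 genes, of which 3 rose and 1 fell. *Acly*, which supplies cytosolic acetyl-CoA to both fatty acids and sterols, rose by 0.55 (SE 0.09, FDR = 0.000171), the elongase *Elovl6* by 0.53 (FDR = 4.41e-05) and the glycerolipid acyltransferase *Gpam* by 0.44 (FDR = 3.49e-05, edgeR), all 3 with no overlap. The desaturase *Scd2* fell by 0.32 (FDR = 0.00845), a call lost with SK-124-treated mice 4 to 6 alone (FDR = 0.0699). In the isoprenoid branch, which makes dolichol, ubiquinone and prenyl groups from the same intermediates, 0 of 9 genes were called in either direction by edgeR, 0 had an unadjusted p under 0.05 and 0 were called by DESeq2.

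Of 5 genes that oxidise sterols, 4 rose and 0 fell. *Cyp27a1*, the mitochondrial sterol hydroxylase, rose by 0.52 (SE 0.06, FDR = 7.12e-06) with no overlap and *Cyp7b1* by 0.43 (SE 0.08, FDR = 0.000660, edgeR). *Ch25h*, which makes an oxysterol that restrains SREBP2, was scarce, with medians of 0.83 and 1.89 CPM and a log2 fold change of 1.35 (SE 0.32, FDR = 0.00521). *Cyp39a1* rose by 0.28 (FDR = 0.0458), a call lost when any mouse but vehicle mouse 2 or 3 or SK-124-treated mouse 4 or 5 was left out (FDR up to 0.116) and with library totals (FDR = 0.264).

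**Figure D4:**
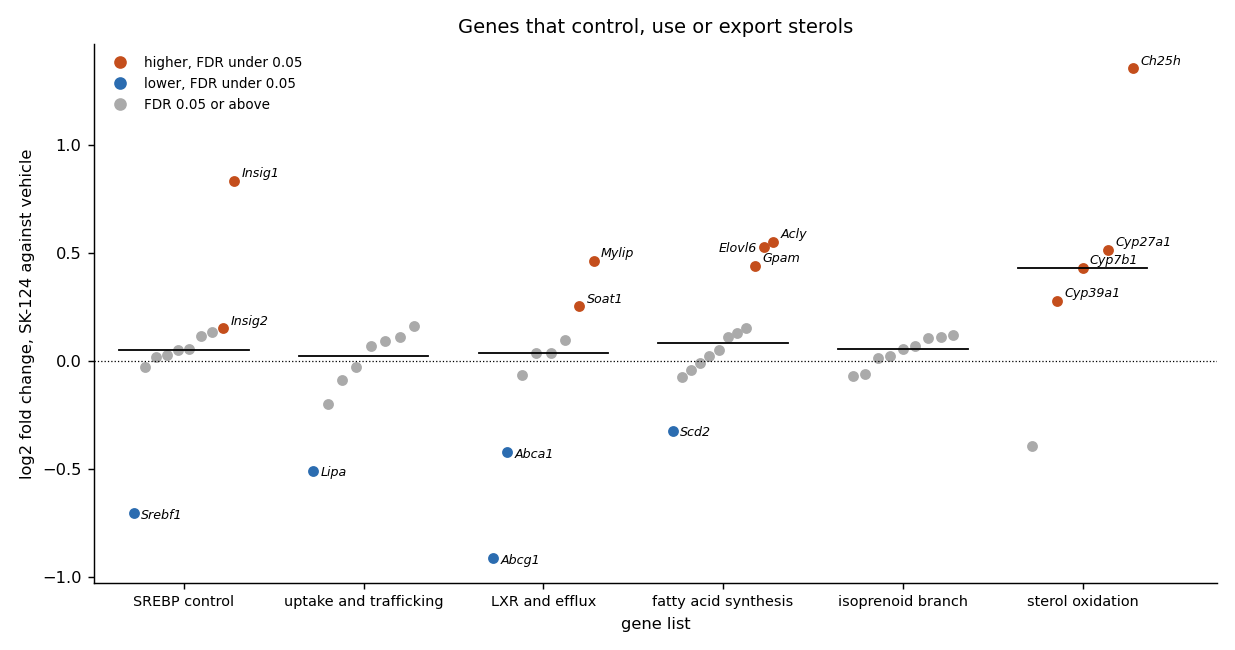
Each point is 1 tested gene of 6 related lists, with the log2 fold change of SK-124 against vehicle on the y axis and the list on the x axis. Orange and blue points passed an FDR of 0.05 and are named, grey points did not, and the black bars are list medians. Points on both sides of 0 passed in the lists of SREBP control, liver X receptors with efflux, and fatty acid synthesis, while 1 lower point passed in uptake and trafficking, none in the isoprenoid branch and 4 higher points in sterol oxidation.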

How the data were processed

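RNA from whole kidneys was sequenced on the BGISEQ platform, and the submitters' processing notes name FastQC, STAR 2.7.2b, RSEM 1.3.0, DESeq2 and mm10. The authors deposited 1 gene table per mouse with RSEM expected counts (estimated counts, not normalized), and with TPM and FPKM, both scaled by the authors to effective length and depth; FPKM was only summarised. The use of strand and the annotation release are not given in the sources used here. Of 55401 identifiers, 54349 matched GENCODE M21 with their version.

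Expected counts were rounded, scaled with TMM and filtered with filterByExpr, which left 14159 genes, and tested with edgeR 4.0.16 (quasi-likelihood, R 4.3.3). The SE is the log2 fold change over the square root of F. Exact permutation tests were two-sided. Overlap between the groups was read in CPM unless another unit is named. The members and gene lists were chosen with earlier results of these data known. Named genes were all members, *Srebf1*, *Scap*, *Insig2*, up to 5 called genes per list and direction whose mean reached 1 CPM, and the 5 genes most like the enzymes' profile. The labels name no batch. Some genes that the lists or this rule held are not reported here and were left out of the list counts. Alternatives were DESeq2 1.42.0, RLE, library totals, unrounded counts, no filter, a minimum of 10 counts in each mouse, a replicate block, robust dispersion, limma 3.58.1 on TPM with 2 pseudocounts, SK-124-treated mice 1 to 3 or 4 to 6 alone and each mouse left out. On simulated counts for this comparison (14159 genes), edgeR recovered 80% of genes changed 1.5-fold and 98% of those changed 2-fold, with 3.78% false calls. The simulated counts had the same dispersion in every gene, and only 100 genes were changed at each fold. Smaller folds were not simulated, so the recovery rates do not cover members that changed by less than 1.5-fold. No pair of mice in a group looked like a duplicate (smallest chi-square per degree of freedom 4.69 over 30 pairs).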

Additional observations from a re-analysis of the deposited data

Results flagged for a closer look

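In 64 sets of 6 values tested (1 gene in 1 treatment group), 3 had an extreme mouse whose gap to its nearest neighbour was large for 6 values by Dixon's test, where chance gives about 3.2. None of the 3 was a member. *Ch25h* was at 4.41 CPM in SK-124-treated mouse 4, the highest of its group, with the next at 2.18 CPM. *Scap* was at 55.4 CPM in vehicle-treated mouse 3, the lowest of its group, with the next at 63.2 CPM. *Scd2* was at 33.4 CPM in SK-124-treated mouse 3, the lowest of its group, with the next at 40.7 CPM.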

How the results depend on the processing

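Over 24 alternative settings for the 8 members, all 192 log2 fold changes stayed above 0 and 169 kept their side of the threshold, 22 lost the call and 1 (*Srebf2* with DESeq2) gained it. Of the 7 members called higher, 4 were called with library totals only, 3 and 3 with limma on log2(TPM + 1) and log2(TPM + 0.1), and 4 with SK-124-treated mice 1 to 3 alone, and between 6 and 7 with each mouse left out. Of 19 sterol pathway enzymes, 10 of them called higher with edgeR, 4 and 4 were called higher with limma on the 2 TPM scales, and between 9 and 12 with each mouse left out. Where 1 was called lower, the count was 3 with library totals only, 2 with SK-124-treated mice 1 to 3 alone and between 1 and 3 with each mouse left out, the highest without SK-124-treated mouse 5. The median r between members in SK-124-treated mice was 0.67 on log2(TPM + 0.5) and 0.67 with library totals, where no median over all gene pairs was obtained. It was -0.26 to 0.31 with each mouse left out. In vehicle-treated mice it was 0.10 to 0.52 with each left out, the lowest without mouse 4 and the highest without mouse 5. For the other pathway genes 1511 values gave 53 lost and 17 gained calls and 0 reversed ones. These causes were not tested, beyond the shift of all genes given above for library totals and TPM and the smaller number of mice where mice were left out.

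The replicate numbers belong to different mice. Deviations of same-numbered mice from their group means correlated with r from -0.13 to 0.22, and 2 of 6 correlated best with their own number. These few values cannot show whether same-numbered mice share more than a number. With the replicate number as a block, 6 members were called higher and *Idi1* was not (FDR = 0.0624), the calls of *Insig2* (FDR = 0.0627) and *Cyp39a1* (FDR = 0.0567) were lost, and 9 sterol pathway enzymes were called higher. Depth limits the scarce genes such as *Ch25h*, and 2 of 10 genes of the liver X receptor list were not tested for low counts.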
